A study of Mus musculus with 2 samples.

Results

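The Notch pathway genes described here are 10 genes chosen by name: the receptors Notch1, Notch2 and Notch3, the ligands Jag1 and Dll1, the modifier Lfng, and the transcriptional targets Hes1, Hey1, Hey2 and Heyl. All 10 were present among the 16388 genes shared by both matrices, of 18452 genes in all. They were measured by droplet single-cell RNA sequencing in Osr1+ cells of the second heart field of wild-type (WT) mouse embryos, at E10.5 and E9.5 (embryonic days). The second heart field is the pool of mesodermal progenitors that adds cells to both ends of the heart tube. The E10.5 sample had been dissected into posterior, middle, anterior and outflow tract pieces, and the E9.5 sample into posterior, middle and anterior pieces, each piece carrying its own barcode suffix and called a library here. No genotype, allele or agent other than WT is given, and the labels do not state how many embryos were combined.

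Notch receptors are cleaved after binding a ligand on a neighbouring cell, first by a metalloprotease and then by the gamma-secretase complex, and the released intracellular part joins the DNA-binding protein RBPJ to switch on targets of the Hes and Hey families. Fringe enzymes such as Lfng add sugars to the receptor and alter which ligand it responds to. In the embryonic heart the pathway is known for roles in the endocardium, in the outflow tract and in second heart field progenitors.

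Cells with 2 or more Epcam UMIs (unique molecular identifiers, each counting 1 captured transcript) were called epithelium-like, after the epithelial adhesion gene Epcam, and all the rest other cells. There were 196 epithelium-like and 1304 other cells among 1500. At E10.5, 78 of 967 cells were epithelium-like, which was 8.07%, and at E9.5, 118 of 533, which was 22.1%. The same limit was applied at a median of 5371 UMIs per cell at E10.5 and 30208 at E9.5. It is more easily reached at E9.5, so these shares cannot be compared between the stages. Of 14 epithelium markers, a list without Epcam itself, 14 were higher in epithelium-like cells at both stages. Of 10 mesenchyme markers 10 were lower at both stages, so the class carried the markers of its name. Markers of other cell types moved with it. Of 12 endothelium markers 10 were higher in epithelium-like cells at E10.5 and 1 at E9.5. Over all libraries of a stage their sum was 128 and 73.9 CPM at E10.5 and 57.7 and 119 CPM at E9.5, in epithelium-like and other cells. The E10.5 libraries differed, with 179 and 77.4 CPM in the posterior but 37.3 and 73.9 CPM in the middle library, in the same order of classes. Cardiomyocyte markers were lower in epithelium-like cells for 7 of 9 at E10.5 and for 10 of 10 at E9.5, and their sum was 63.1 and 240.9 CPM at E10.5 and 171 and 3360 CPM at E9.5. Myh6 at E10.5 and Erg and Nppa at E9.5 were at 0 in epithelium-like cells, and Myh7 at E10.5 in other cells. The part of these lists in the class differences of Hes1, Hey1 and Jag1 described later was not tested. The sum of the epithelium markers was 2109 CPM (UMIs per 1000000 UMIs) in epithelium-like and 122 CPM in other cells at E10.5, and 2607 and 350 CPM at E9.5. The line between the classes runs through low counts, with 29 cells at exactly 2 Epcam UMIs and 129 cells at exactly 1.

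The libraries held 560 posterior, 331 middle, 45 anterior and 31 outflow tract cells at E10.5, and 418 posterior, 61 middle and 54 anterior cells at E9.5. The median depth was 5371 UMIs per cell at E10.5 and 30208 at E9.5, so stage and depth cannot be told apart. Every cell held at least 1 Osr1 UMI, and 1 cell barcode was shared between E10.5 libraries and none between stages. The E10.5 anterior and outflow tract libraries held 1 and 3 epithelium-like cells, so only their other cells are described. Levels are given as CPM of the cells of a library and class summed together, and their 95% Poisson intervals cover counting error only. UMIs were counted per transcript without a length term, so levels are compared within a gene and not between genes.

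The members fell into a well-counted and a sparse group. Hes1 had 383 UMIs at E10.5 and 875 at E9.5, Notch2 198 and 331, Notch3 148 and 339, Hey1 86 and 383, Jag1 50 and 326, and Notch1 55 and 54. Hey2 had 3 and 41 UMIs, Heyl 6 and 14, Dll1 3 and 9, and Lfng 1 and 6. Those last 4 genes are too sparse for a level in most libraries.

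**Figure D1:**
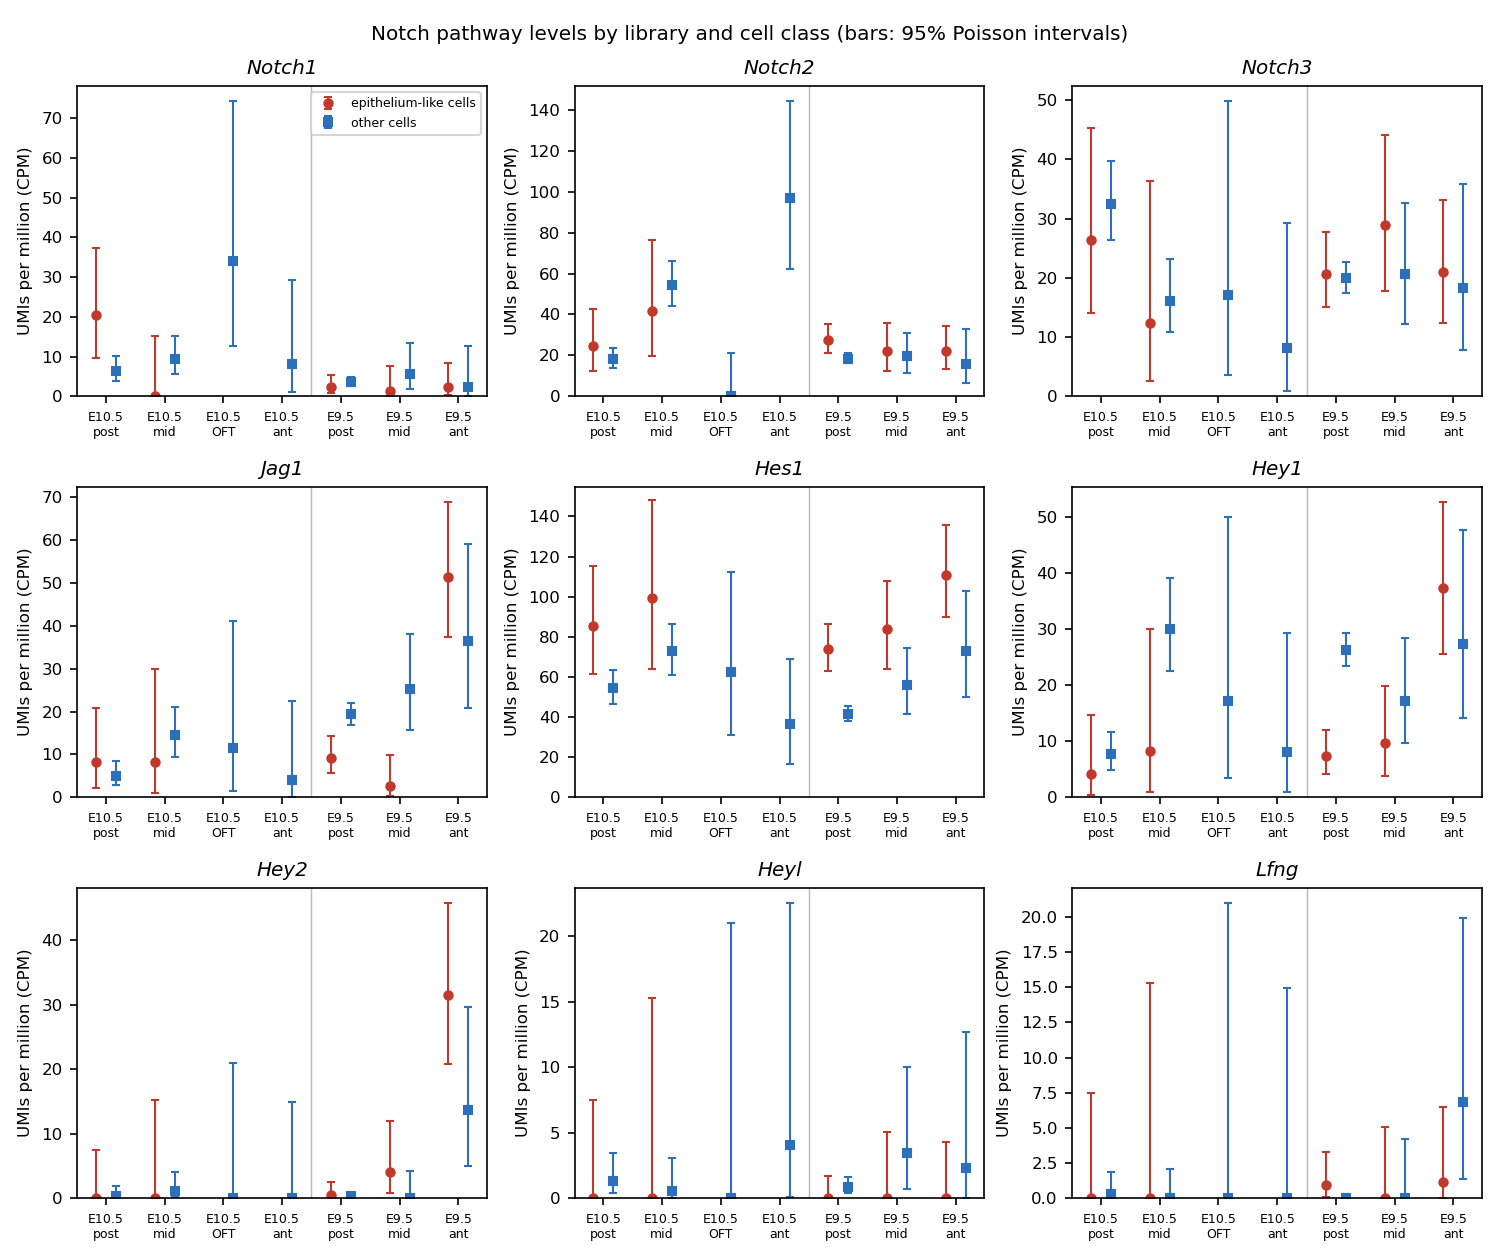
Levels of 9 of the genes in CPM (vertical axis) in each library with at least 10 cells of a class, E10.5 left of E9.5 (post, posterior; mid, middle; OFT, outflow tract; ant, anterior). Red circles are epithelium-like cells, blue squares other cells, and bars are 95% Poisson intervals. Hes1 is higher in epithelium-like cells in each of the 5 libraries that have both classes, and Hey2 is highest in E9.5 anterior epithelium-like cells at 31.5 CPM.

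Hes1 (chr16:30064384-30067796, + strand, GRCm38) encodes a basic helix-loop-helix repressor that is a direct Notch target in many tissues. At E10.5 Hes1 stood at 85.4 CPM in epithelium-like and 54.4 CPM in other cells of the posterior library. In the E10.5 middle library it stood at 99.5 CPM in epithelium-like and 72.8 CPM in other cells. Epithelium-like cells were the higher class in both. At E9.5 the posterior library gave 73.9 CPM in epithelium-like and 41.6 CPM in other cells. The E9.5 middle library gave 83.7 and 56.1 CPM in the same order of classes, and the E9.5 anterior library 111 and 72.8 CPM. The Hes1 level in CPM was thus higher in epithelium-like cells in 5 of 5 libraries, with log2 differences between 0.45 and 0.83. The share of cells with a Hes1 UMI, after thinning each cell to 4500 UMIs, was less uniform. In epithelium-like and other cells it was 35.2% and 19.2% (E10.5 posterior), 38.7% and 15.2% (E9.5 posterior), and 23.8% and 17.5% (E9.5 middle). Epithelium-like cells had the lower share in the E10.5 middle (18.8%, 3 of 16 cells, against 28%) and E9.5 anterior library (35.3% against 40%).

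The class difference was tested on the 10 sums of the 5 libraries with at least 10 cells of each class, with the library as a block, in a fit over 8548 genes by edgeR's quasi-likelihood test with Benjamini-Hochberg adjustment over all of them. Hes1 was 0.68 ± 0.13 higher in epithelium-like cells on the log2 scale (SE), with an adjusted p of 0.00416. Of all genes tested 8.19% were called at an adjusted p under 0.05, 4.63% higher and 3.56% lower in epithelium-like cells. Of the members 6 of 10 passed the filter on low counts and 1, Hes1, was called, while Notch1, Dll1, Heyl and Lfng were not tested. The median log2 difference of the 6 was 0.20, against -0.02 over all genes tested. The Hes1 call was lost without the E9.5 posterior library (0.61, adjusted p 0.0709) and when 1 Epcam UMI was enough to be epithelium-like (0.42, adjusted p 0.0915). It was also lost without the library block (0.70, adjusted p 0.0973), and when cells were thinned to 4500 UMIs, shallower cells left out and the Epcam limit lowered to 1 at once (0.68, adjusted p 0.183).

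Hes1 was also described across Epcam counts, over the cells of all libraries of a stage. At E10.5 it stood at 62.6 CPM in cells with no Epcam UMI, 38.0 CPM with 1, 91.8 CPM with 2 to 4 and 94.1 CPM with 5 or more. At E9.5 the same 4 groups of cells stood at 43.1, 46.6, 60.0 and 90.4 CPM. Cells with 1 Epcam UMI thus lay nearer to cells with none than to cells with 5 or more at both stages. Deeper cells hold more Epcam UMIs, and cells of several positions are mixed in these groups, so no test was made.

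Hey1 (chr3:8663359-8667256, - strand), a repressor of the Hes-related family that is expressed in atrial myocardium and endothelium, was distributed otherwise. In the posterior libraries Hey1 stood at 4.07 CPM in epithelium-like (2 UMIs) and 7.78 CPM in other cells at E10.5, and at 7.35 (16 UMIs) and 26.2 CPM at E9.5. The E10.5 epithelium-like interval of 0.493 to 14.7 CPM included the level of the other cells. In the middle libraries Hey1 stood at 8.29 CPM in epithelium-like (2 UMIs) and 30.0 CPM in other cells at E10.5, and at 9.61 (7 UMIs) and 17.2 CPM at E9.5. Epithelium-like cells were the lower class in these 4 libraries and the higher class in the E9.5 anterior library, at 37.3 CPM in epithelium-like and 27.3 CPM in other cells. The fitted log2 difference was -0.95 ± 0.33 (SE), which did not pass the test (edgeR adjusted p 0.107). Without the E9.5 anterior library it was -1.46 with an adjusted p of 0.00958, and without the filter on low counts it was -0.97 with an adjusted p of 0.0169.

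Jag1 (chr2:137081456-137116644, - strand) encodes Jagged1, a transmembrane Notch ligand. At E9.5 Jag1 stood at 9.18 CPM in epithelium-like and 19.3 CPM in other cells of the posterior library, at 2.75 and 25.2 CPM in the middle library, and at 51.3 and 36.4 CPM in the anterior library. Epithelium-like cells were lower in the posterior and middle libraries and higher in the anterior one, where 1 cell held 14 of their 44 UMIs. At E10.5 the classes stood at 8.13 CPM (epithelium-like, 4 UMIs) and 5.07 CPM (other) in the posterior library, and at 8.29 CPM (epithelium-like, 2 UMIs) and 14.4 CPM (other) in the middle library. The fitted class difference was -0.64 ± 0.37 (SE, edgeR adjusted p 0.391), which did not pass.

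No receptor passed the test between the classes. Notch2 (chr3:98013527-98150361, + strand) differed by 0.34 ± 0.21 (SE) and Notch3 (chr17:32120820-32166852, - strand) by 0.07 ± 0.22 on the log2 scale, with edgeR adjusted p-values of 0.425 and 0.941. At E9.5 Notch3 was nearly level over the 6 combinations of class and position, between 18.2 and 28.8 CPM, and Notch2 between 15.9 and 27.6 CPM. Hey2 differed by 1.07 ± 0.77 (SE, edgeR adjusted p 0.515), and 33 of its 44 UMIs lay in the E9.5 anterior library. Notch1 (chr2:26457903-26516663, - strand) was not tested, and in E10.5 posterior cells it stood at 20.3 CPM in epithelium-like cells (10 UMIs) and 6.42 CPM in other cells (19 UMIs). The summed endothelium markers of those same E10.5 posterior cells were 179 CPM in epithelium-like and 77.4 CPM in other cells, and their part in the Notch1 level was not tested.

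**Figure D2:**
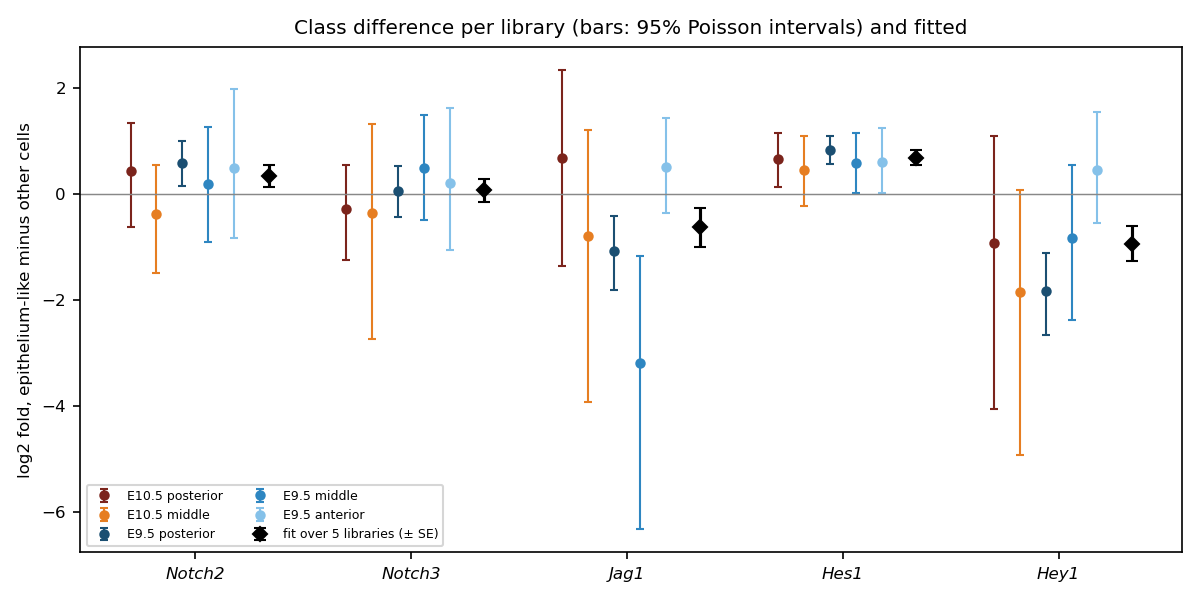
Log2 difference between epithelium-like and other cells (vertical axis) for 5 genes, in each of 5 libraries (coloured points, 95% Poisson intervals) and as fitted over all 5 (black diamonds, ± SE). The Hes1 points all lie above 0, between 0.45 and 0.83, whereas Hey1 and Jag1 have points on both sides of 0.

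Whether the class difference differed between the stages was tested in a separate fit of the same 10 sums, with a class by stage term and 3 residual degrees of freedom. Of 8548 genes 2 were called, which was 0.0234%, and 459 had an unadjusted p under 0.05. None of the 6 members tested was called, with edgeR adjusted p-values between 0.930 and 0.994. For Hes1 the class difference at E10.5 minus that at E9.5 was -0.08 ± 0.28 on the log2 scale (SE). The same Epcam limit was used at both depths, so the classes of the 2 stages need not match.

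Of 40 other Notch pathway genes listed (further ligands and receptors, processing enzymes, RBPJ cofactors and targets) 39 were in both matrices and 23 were tested for the class difference. Ncstn was called higher in epithelium-like cells and none was called lower, against 8.19% of all genes called in either direction. Ncstn encodes nicastrin, a subunit of the gamma-secretase complex. At E10.5 Ncstn stood at 18.3 CPM in epithelium-like and 10.48 CPM in other cells of the posterior library, and at 12.4 and 10.6 CPM in the middle library. At E9.5 it stood at 28.0 and 17.7 CPM in the posterior, 34.3 and 16.0 CPM in the middle and 30.3 and 15.9 CPM in the anterior library, epithelium-like cells given before other cells. Epithelium-like cells were the higher class in all 5 libraries, and the fitted log2 difference was 0.80 ± 0.22 (SE, edgeR adjusted p 0.0396). Their E10.5 levels rest on 9 UMIs in the posterior and 3 UMIs in the middle library. The alternative settings were followed gene by gene only for the members, so how the Ncstn call depends on them is not given. The median log2 difference of the 23 genes was -0.0029, against -0.02 over all genes tested.

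Hey2 (chr10:30832359-30842801, - strand), a Hes-related repressor that marks compact ventricular myocardium later in development, was concentrated in the E9.5 anterior library. There it had 27 UMIs and 31.5 CPM in epithelium-like cells, with an interval of 20.8 to 45.8, and 6 UMIs and 13.7 CPM in other cells. In the E9.5 middle library it had 3 UMIs and 4.12 CPM in epithelium-like cells and 0 UMIs in other cells, which allows up to 3.44 CPM. In the E9.5 posterior library it had 1 UMI in epithelium-like and 4 UMIs in other cells, at 0.459 and 0.349 CPM. At E10.5 only 3 Hey2 UMIs were counted, 1 in posterior and 2 in middle other cells. The E10.5 anterior other cells had 0 UMIs, which at their depth allows up to 12.1 CPM, so a level such as that of the E9.5 anterior other cells was barely detectable there.

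Hey2 UMIs were spread over many E9.5 anterior cells. At least 1 was found in 18 of 34 epithelium-like cells (52.9%) and in 5 of 20 other cells (25%), and no cell held more than 3. In E9.5 posterior other cells the share was 4 of 355 (1.13%), at a median depth of 31154 UMIs per cell against 23230 in the E9.5 anterior epithelium-like cells. After thinning to 4500 UMIs the shares were 11.8% in anterior epithelium-like, 15% in anterior other and 0.57% in posterior other cells. The summed cardiomyocyte markers of the E9.5 anterior library were 163 CPM in its epithelium-like and 2225 CPM in its other cells, and their part in the Hey2 level was not tested.

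Jag1 and Hey1 were also highest in that library among E9.5 epithelium-like cells. Jag1 stood at 9.18 CPM in posterior, 2.75 CPM in middle and 51.3 CPM in anterior epithelium-like cells, and Hey1 at 7.35, 9.61 and 37.3 CPM in the same order of positions. The 44 anterior Jag1 UMIs lay in 12 of 34 cells, with 14 of them in 1 cell, a clumping that the intervals do not cover. Hey1 UMIs lay in 21 of those 34 cells, with at most 6 in a cell. Relative to anterior cells, Jag1 was 5.59-fold lower in posterior cells, with an interval of 3.23 to 10.0. For Hey1 the same difference was 5.08-fold, with an interval of 2.71 to 9.91. With 1 library of each position at E9.5 these are differences between libraries, and no test was made. Hes1 was ordered alike, at 73.9, 83.7 and 111 CPM in posterior, middle and anterior cells, but with neighbours whose intervals overlapped. Notch2 and Notch3 showed no such order, and all 3 positions overlapped in their intervals.

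The promoter of Hey2 was looked up because of this concentration in 1 library, beside those of Jag1, which peaked in the same library, and Lfng. RefSeq promoter sequences (GRCm38.p6) were available for 7 of the 10 members, not including Hes1, Hey1 and Heyl. The RBPJ motif GTGGGAA and its core TGGGAA were searched on both strands in the 250 bases before each RefSeq start, and every GTGGGAA match contains a TGGGAA match. That start lies inside the GENCODE gene for several members, so that 18 bases of the Hey2, 21 of the Lfng and 124 of the Jag1 window, and the whole Notch1 window, are within the gene. Only the windows of Hey2 and Lfng among the 7 held either motif. Across 32851 mouse promoter windows of that length 21.6% held TGGGAA and 5.42% held GTGGGAA. The sequences below run 5′ to 3′ on the strand of the gene, stop where the GENCODE gene begins, and carry motif matches in capitals (TTCCCA and TTCCCAC are the reverse strand forms). They cover chr10:30842802-30843033 on the - strand for Hey2, chr5:140607091-140607319 on the + strand for Lfng and chr2:137116645-137116770 on the - strand for Jag1.
Hey2: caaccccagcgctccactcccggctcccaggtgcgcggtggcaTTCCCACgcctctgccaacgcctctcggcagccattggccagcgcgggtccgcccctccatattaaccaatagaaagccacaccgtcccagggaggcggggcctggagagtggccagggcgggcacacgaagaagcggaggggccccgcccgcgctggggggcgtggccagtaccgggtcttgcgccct
Lfng: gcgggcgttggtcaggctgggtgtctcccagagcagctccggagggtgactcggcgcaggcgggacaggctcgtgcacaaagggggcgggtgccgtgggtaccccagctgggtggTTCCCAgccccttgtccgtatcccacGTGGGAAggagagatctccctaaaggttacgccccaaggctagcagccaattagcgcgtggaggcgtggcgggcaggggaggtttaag
Jag1: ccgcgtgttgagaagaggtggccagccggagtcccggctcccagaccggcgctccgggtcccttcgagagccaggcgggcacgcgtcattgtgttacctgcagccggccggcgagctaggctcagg
The Hey2 window held 1 match, a reverse-strand GTGGGAA 207 bases before the RefSeq start, the Lfng window held a reverse-strand TGGGAA and a forward GTGGGAA, and the Jag1 window held neither. A match shows only that these letters are present.

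Lfng itself was close to the limit of detection. It had 7 UMIs in all, 4 of them in the E9.5 anterior library, 1 in its epithelium-like and 3 in its other cells. The remaining 3 were 2 in E9.5 posterior epithelium-like cells and 1 in E10.5 posterior other cells. Dll1, the Delta-like ligand, had 12 UMIs, 3 in E10.5 middle other cells and, at E9.5, 3 in posterior epithelium-like and 6 in posterior other cells. Heyl, the third Hes-related repressor, had 20 UMIs and none of them lay in epithelium-like cells: 6 lay in other cells at E10.5 and 14 at E9.5. In the deepest epithelium-like sum, E9.5 posterior, its count of 0 allows up to 1.38 CPM, while E9.5 posterior other cells stood at 0.872 CPM, so a difference was not detectable at this depth.

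Position was tested in other cells of the posterior, middle and anterior libraries of both stages, with stage in the model, which left 2 residual degrees of freedom. The outflow tract library, a separate piece only at E10.5, was left out. Posterior against anterior, 44 of 9005 genes were called (0.489%), and 679 had an unadjusted p under 0.05. Posterior against middle, 44 were called (0.489%), and middle against anterior, 10 (0.111%). Of the members 6 of 10 were tested (Dll1, Hey2, Heyl and Lfng were too low) and edgeR and DESeq2 called none of the 6 in any of the 3 comparisons. In edgeR 1 member had an unadjusted p under 0.05 for posterior against anterior, 1 for posterior against middle and none for middle against anterior. Of the 40 other pathway genes 22 were tested and none was called by edgeR in any of the 3 comparisons.

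Notch2 had the lowest adjusted p among the members for posterior against anterior. At E10.5 it stood at 18.3 CPM in posterior, 54.4 CPM in middle and 97.1 CPM in anterior other cells. At E9.5 it stood at 18.5, 19.5 and 15.9 CPM in the same order. The E10.5 levels were thus ordered along the axis with intervals that separated posterior cells from both others, and the E9.5 levels overlapped in their intervals. The fitted posterior minus anterior difference over both stages was -1.33 ± 0.51 on the log2 scale (SE, edgeR adjusted p 0.482). It was -2.09 without the E9.5 anterior library and -2.31 without the E9.5 posterior library. Each of these fits keeps 1 library of the position left out, so that position had no replicate. Posterior minus middle was -0.86 ± 0.43 (SE, edgeR adjusted p 0.935), and -1.78 without E9.5 posterior, again with 1 posterior library.

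Within E10.5 alone, Notch2 in posterior other cells differed from anterior ones by a log2 ratio of -2.41, with a counting interval of -3.13 to -1.65. Notch2 UMIs were found in 50 of 502 posterior (9.96%), 79 of 315 middle (25.1%) and 17 of 44 anterior other cells (38.6%), and depths were alike, with medians of 5304, 5228 and 5270.5 UMIs. In the outflow tract 0 of 28 other cells held one, which allows up to 17.1 CPM, and against that limit Notch2 was at least 5.68-fold lower there than the anterior level of 97.1 CPM. With the counting error of the 24 anterior UMIs included, the interval of the ratio begins at 4.28-fold lower. The E10.5 outflow tract and anterior libraries were 1 library each, so this difference has no replicate check. The summed smooth muscle and mural cell markers of E10.5 other cells were 117 CPM in posterior, 383 CPM in middle, 165 CPM in outflow tract and 987 CPM in anterior cells, which is the order of Notch2 except for the outflow tract. At E9.5 they were 669, 160 and 1106 CPM in posterior, middle and anterior other cells, where Notch2 did not follow. Their part in the Notch2 level was not tested.

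The other members gave smaller or less certain position differences. Posterior minus anterior was -0.94 ± 0.54 for Jag1, -0.45 ± 0.35 for Hes1, -0.29 ± 0.65 for Hey1, 0.67 ± 0.54 for Notch3 and -0.07 ± 1.01 for Notch1 (log2, SE), with edgeR adjusted p-values between 0.739 and 0.996. Posterior minus middle was -0.94 ± 0.43 for Jag1 and between -0.79 and 0.44 for the other members, with edgeR adjusted p-values of 0.853 or more. The direction of Hes1, Hey1, Jag1 and Notch1 for posterior against anterior turned when 1 library was left out.

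Stage was compared only between libraries of the same position, since there was 1 sample of each stage, so no test was made. The outflow tract was a separate piece only at E10.5, so the anterior pieces of the 2 stages need not hold the same tissue. In posterior other cells, the largest sums, Jag1 and Hey1 had log2 ratios below -1. Jag1 stood at 5.07 CPM (15 UMIs) at E10.5, against 19.3 CPM (222 UMIs) at E9.5, a log2 ratio of -1.93 with a counting interval of -2.79 to -1.18. Hey1 stood at 7.78 CPM (23 UMIs) at E10.5, against 26.2 CPM (301 UMIs) at E9.5, a log2 ratio of -1.75 with an interval of -2.43 to -1.14. Both genes were thus at a lower level in the E10.5 posterior cells. Jag1 was also at a lower level at E10.5 in anterior other cells (4.05 CPM, 1 UMI, against 36.4 CPM, 16 UMIs), with an interval of -8.56 to -0.48, whereas in middle other cells (14.4 against 25.2 CPM) the interval of -1.68 to 0.09 included 0. Hey1 in middle other cells stood at 30.0 CPM at E10.5 and 17.2 CPM at E9.5, the opposite direction, with an interval of -0.04 to 1.74.

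The summed cardiomyocyte markers of posterior other cells were 347 CPM at E10.5 and 3617 CPM at E9.5. Cells in which these markers made up over 1% of UMIs numbered 1 at E10.5 and 29 at E9.5. Without them, Jag1 stood at 5.09 CPM at E10.5 and 16.5 CPM at E9.5, a log2 ratio of -1.70 with an interval of -2.57 to -0.94. Hey1 stood at 7.80 CPM at E10.5 and 24.2 CPM at E9.5, a log2 ratio of -1.63 with an interval of -2.32 to -1.01. In anterior other cells the same limit left out 0 cells at E10.5 and 2 of 20 at E9.5. Jag1 there then stood at 4.05 CPM (1 UMI) at E10.5 and 23.3 CPM (9 UMIs) at E9.5. Its interval of -7.98 to 0.33 then included 0. The limit of 1% was chosen after seeing the data.

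The receptors and Hes1 went the other way where they differed. Notch2 stood at 54.4 CPM at E10.5 and 19.5 CPM at E9.5 in middle other cells, a log2 ratio of 1.48 with an interval of 0.73 to 2.32. In anterior other cells it stood at 97.1 CPM at E10.5 and 15.9 CPM at E9.5, a log2 ratio of 2.61 with an interval of 1.35 to 4.07. In posterior other cells, at 18.3 and 18.5 CPM, the ratio was -0.02 with an interval of -0.48 to 0.42. Notch2 thus showed a stage difference in 2 of 3 positions. For the anterior position it depends on how the pieces were cut, since outflow tract other cells, separate only at E10.5, had 0 Notch2 UMIs. Notch3 in posterior other cells stood at 32.5 CPM at E10.5 and 19.96 CPM at E9.5, with an interval of 0.34 to 1.05, and Hes1 at 54.4 and 41.6 CPM, with an interval of 0.12 to 0.65. In middle and anterior other cells the intervals of Notch3 and Hes1 included 0.

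Notch1 stood at 6.42 CPM at E10.5 and 3.49 CPM at E9.5 in posterior other cells, with an interval of 0.01 to 1.70. Without cells with over 1% cardiomyocyte marker UMIs the interval was -0.07 to 1.63, which included 0. Of the 19 Notch1 UMIs in the 502 E10.5 posterior other cells, 13 lay in the 498 cells with fewer than 3 endothelium markers. Those 498 cells stood at 4.46 CPM, against 1.44 CPM (14 UMIs) in the 318 such cells at E9.5. Without cells with 3 or more endothelium markers the log2 ratio was thus 1.63, a larger difference. In posterior epithelium-like cells Notch1 stood at 20.3 CPM at E10.5 (10 UMIs) and 2.30 CPM at E9.5 (5 UMIs), with an interval of 1.46 to 5.05. Its level in E10.5 outflow tract other cells was 34.2 CPM from 6 UMIs, with an interval of 12.5 to 74.4. Every Notch1 level thus rests on 40 UMIs or fewer.

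**Figure D3:**
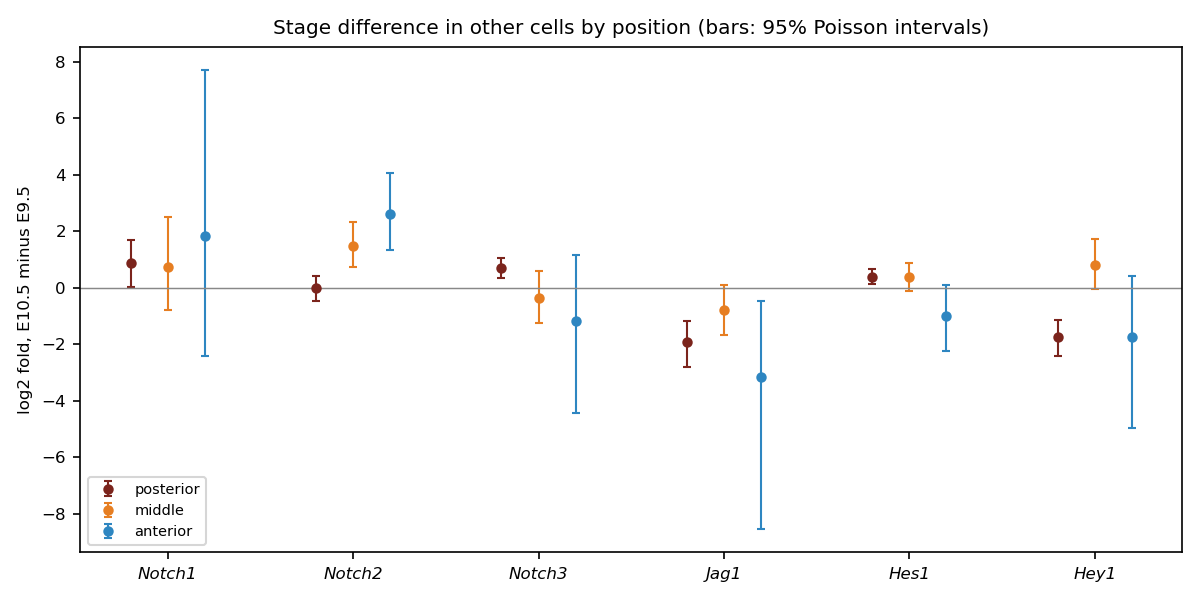
Log2 ratio of E10.5 over E9.5 levels in other cells (vertical axis) for 6 genes in the posterior, middle and anterior libraries, with 95% Poisson intervals of counting error. Notch2 lies above 0 in middle (1.48) and anterior (2.61) cells, and Jag1 below 0 in posterior (-1.93) and anterior (-3.17) cells. The outflow tract was separate from the anterior piece only at E10.5.

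The E9.5 posterior other cells were numerous and deep enough to be divided by markers of other cell types. A cell was counted as carrying endothelium markers with UMIs of 3 or more of 12 listed genes, and as carrying cardiomyocyte markers where they made up over 1% of its UMIs. There were 37 and 29 such cells among 355, with 5 in both, and 83 cells lay just under the endothelium limit with exactly 2 of its markers. The doublet caller Scrublet marked 2 of the 418 E9.5 posterior cells as doublets, and they were kept. They lay in the epithelium-like class, and 0 of the 355 other cells were marked. No test was made on these sets of cells, which come from 1 library.

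Notch1 was concentrated in cells with endothelium markers. It stood at 14.9 CPM (26 UMIs) in the 37 cells and 1.44 CPM (14 UMIs) in the other 318, a ratio of 10.3 with an interval of 5.19 to 21.4. Of the 6 Dll1 UMIs in E9.5 posterior other cells, 4 lay in those 37 cells. Hes1 stood at 28.6 CPM in them and 43.9 CPM in the 318, a ratio of 0.651 with an interval of 0.475 to 0.874. Jag1 (20.6 against 19.1 CPM), Hey1 (29.7 against 25.6 CPM), Notch2 (13.1 against 19.4 CPM) and Notch3 (14.3 against 21.0 CPM) had intervals that included equal levels. The 37 cells were deeper, with a median of 43451 UMIs against 30586.

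In cells with cardiomyocyte markers, Jag1 and Hey1 stood at higher levels and Hes1, Notch2 and Notch3 at lower levels than in the rest. Jag1 stood at 51.4 CPM in the 29 cells and 16.5 CPM in the other 326, a ratio of 3.11 with an interval of 2.21 to 4.31. Hey1 stood at 49.3 CPM in the 29 cells and 24.2 CPM in the 326, a ratio of 2.04 with an interval of 1.45 to 2.80. Hes1 stood at 5.36 CPM (5 UMIs) in the 29 cells and 44.8 CPM in the 326, a ratio of 0.120 with an interval of 0.039 to 0.281. The ratio was 0.162 for Notch2 and 0.150 for Notch3, each resting on 3 UMIs in the 29 cells. Notch1 had 1 UMI in them, a ratio of 0.289 with an interval of 0.007 to 1.71 that includes equal levels. Median depths were alike, at 32285 UMIs in the 29 cells and 31035.5 in the 326.

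**Figure D4:**
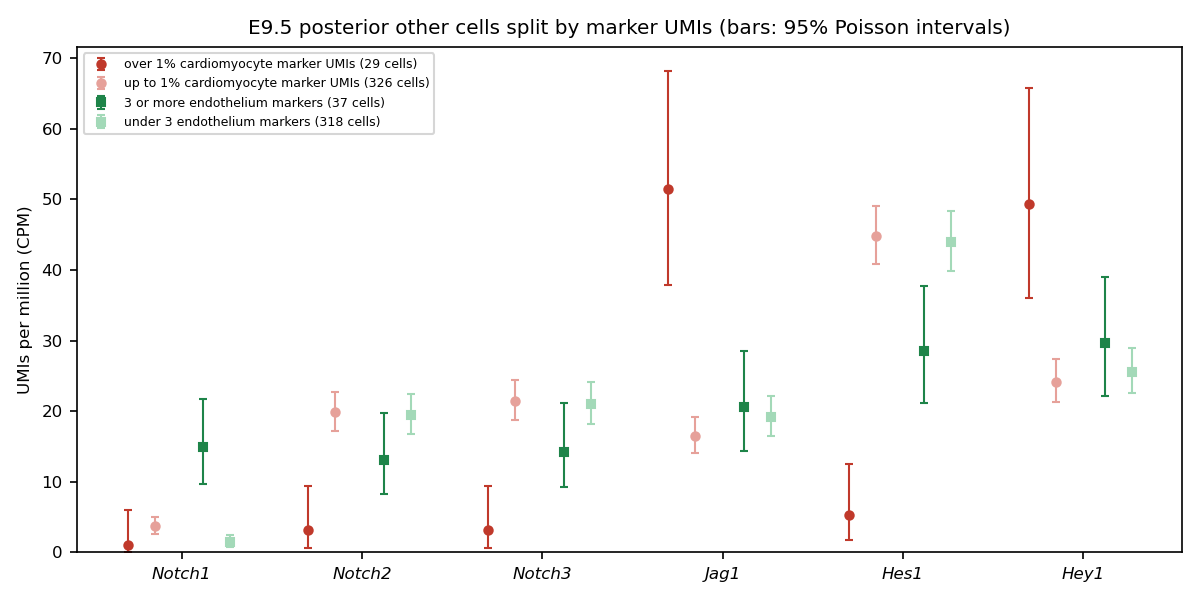
Levels in CPM (vertical axis) of 6 genes in E9.5 posterior other cells, divided by cardiomyocyte markers (circles) and by endothelium markers (squares), with 95% Poisson intervals. Notch1 is highest in cells with 3 or more endothelium markers (14.9 CPM), and Jag1 (51.4 CPM) and Hey1 (49.3 CPM) are highest in cells with over 1% cardiomyocyte marker UMIs, where Hes1 is lowest (5.36 CPM).

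For the 6 members with at least 100 UMIs, the genes with the most similar pattern were sought by Pearson's r of log2(CPM + 10) over 12 sums of libraries and classes, among 5450 genes that averaged at least 20 CPM. Hes1 was most like Cystm1 (r = 0.87), Spint2 (0.86) and Klk8 (0.85). Jag1 was most like Mmd (0.91), Gm45716 (0.88) and Pmp22 (0.87), and Hey1 like Gm45716 (0.81), Mmd (0.80) and Slc35b1 (0.77), so Jag1 and Hey1 shared 2 of their 3 nearest genes. Notch2 was most like Ccdc90b (0.90), Sdf2 (0.89) and Rab24 (0.88), and Notch3 like mt-Atp6 (0.95), mt-Nd2 (0.93) and March7 (0.93). Notch1 was most like Far1 (0.95), Mex3c (0.95) and Nfe2l2 (0.94), on 109 UMIs in all. The 12 sums share libraries, stage and depth, so these values describe likeness only.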

How the data were processed

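The authors deposited 1 matrix of whole-number UMI counts for each stage, without normalization. Reads were processed with Cell Ranger 3.0, Seurat and mm10 according to the submitters' processing notes, and per the labels' protocols cells were dissociated with trypsin and run on the 10x Chromium. How Osr1+ cells were chosen, and which annotation was used, are not given in the sources used here. Totals per stage were 5940977 UMIs at E10.5 and 16548509 at E9.5. No cell was removed. Counts were summed per library and class and tested with edgeR 4.0.16 in R 4.3.3 (TMM, filterByExpr, quasi-likelihood F test, Benjamini-Hochberg adjustment over all genes, called at an adjusted p under 0.05), after testing the scripts on simulated data. DESeq2 1.42.0 was an alternative. SE is the fitted log2 difference divided by the square root of F. The p-values measure the spread between dissected libraries of 2 stage samples, not between embryos. Ratios of single libraries carry exact 95% conditional Poisson intervals of counting error, and a count of 0 allows up to 3 counts. Scrublet (scanpy 1.11.5) marked 44 of 45 E10.5 anterior cells and 31 of 54 E9.5 anterior cells, so its marks were used, in an alternative, only in libraries of 100 or more cells. Of the gene symbols, 99.0% at E10.5 and 98.9% at E9.5 were found in a reference list of gene names. Gene positions were taken from GENCODE vM21 (GRCm38). Genes named are the members, pathway genes that were called, 3 pathway genes of endothelium named in the closing observations, and for each member with at least 100 UMIs its 3 most similar genes. The members and lists were chosen with earlier results of these data known.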

Additional observations from a re-analysis of the deposited data

Results flagged for a closer look

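The E10.5 minus E9.5 difference in whole libraries had opposite directions between positions for 2 members. For Hes1 the log2 ratio was 0.33 in the posterior and -1.31 in the anterior library. For Hey1 it was 1.00 in the middle library, against -1.68 in the posterior and -2.11 in the anterior library. Whole libraries mix the classes, and the epithelium-like share of the anterior library was 2.22% at E10.5 and 63.0% at E9.5. Each value compares 1 library of each stage, so the difference between positions was not tested. The anterior pieces need not match, since the outflow tract was a separate piece only at E10.5.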

How the results depend on the processing

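The alternatives covered the Epcam limit, the cell minimum, scaling, filter, blocking, thinning to 4500 UMIs together with an Epcam limit of 1 and without shallower cells (called thinned with Epcam of 1), sets of cells left out and each library left out; leaving out cells with 1 Epcam UMI or over 1% cardiomyocyte marker UMIs, and the minimum for Scrublet marks, were chosen after seeing the data. Of the values for single members, 362 kept their direction and side of the threshold (or, untested, their value), 6 passed the threshold newly, 4 no longer passed it and 12 changed direction; the causes were not tested.
The 700 genes called between classes became 358 (Epcam of 1 or more), 1340 (counts summed per stage), 1354 (no filter), 333 (no library block) and 107 (thinned with Epcam of 1, 4026 genes tested), and 388 to 752 with a library left out. The 1 member called became 0 at Epcam of 1 or more, with or without thinning, and without the block, 2 with stage sums and without the filter, and 0 to 2 with a library left out. The 2 genes called between stages in their class difference became 1 (Epcam of 3 or more, and without cells with 1 Epcam UMI), 61 (no filter), 0 (no block) and 21 (thinned with Epcam of 1), and 2 to 15 with a library left out.
In other cells, the 44 genes called for posterior against anterior became 29 (all cells), 166 (no filter), 0 (no stage term), 27 (thinned with Epcam of 1) and 28 (without cells with endothelium markers), and 95 to 178 with a library left out. The 44 for posterior against middle became 25 (DESeq2), 19 (all cells), 168 (no filter), 0 (no stage term), 25 (thinned with Epcam of 1) and 27 (without cells with cardiomyocyte markers), and 43 to 222 with a library left out. The 10 for middle against anterior became 0 (all cells, and no stage term), 73 (no filter), 4 (thinned with Epcam of 1) and 5 (without cells with endothelium markers), and 10 to 137 with a library left out. Leaving a library out of a position fit keeps 1 library of its position, so counts of genes called are not given for it. The values that newly passed the threshold include Notch2 in such fits, without a replicate of the position.
For posterior against anterior, Notch1 turned to 0.030 without the filter and Hey1 to 0.40 without cells with endothelium markers. With a library left out, log2 differences ranged from -0.049 to 0.19 for Notch3 between classes, and for posterior against anterior from -0.42 to 0.51 for Notch1, -0.93 to 0.53 for Hes1, -1.62 to 0.67 for Hey1 and -1.46 to 0.67 for Jag1. For posterior against middle they ranged from -2.06 to 0.63 for Hey1, -1.78 to 0.17 for Notch2 and -0.16 to 0.98 for Notch3. Thinning with an Epcam limit of 1 moved the E10.5 over E9.5 log2 ratio of Hey1 in middle other cells to 2.68, against 0.80.
No paired analysis was possible because there was 1 sample of each stage, so no replicate numbers pair E10.5 with E9.5; the pairing of classes within a library is the library block above. Depth limits Dll1, Heyl, Lfng and Hey2 outside the E9.5 anterior library, and every E10.5 anterior and outflow tract level.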

Other observations

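Notch4, Dll4 and Jag2, pathway genes that are known for roles in vessels, were also counted in the E9.5 posterior other cells. Notch4, an endothelial receptor, had 8 UMIs (4.57 CPM) in the 37 cells with 3 or more endothelium markers and 41 UMIs (4.22 CPM) in the 318 without, a ratio of 1.08 with an interval of 0.439 to 2.34, so it did not share the concentration of Notch1 within counting error. Notch4 had 0 UMIs in the 29 cells with over 1% cardiomyocyte marker UMIs and 49 in the other 326. Dll4, an endothelial ligand, had 1 UMI in all 355 cells. Jag2, a ligand related to Jag1, had 8 UMIs (8.57 CPM) in those 29 cells and 3 UMIs (0.285 CPM) in the 326, a ratio of 30.1 with an interval of 7.22 to 176. Jag2 thus lay mostly in the same 29 cells in which Jag1 was high. The sets of cells were fixed with the values in view and come from 1 library, so these values have no replicate check.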
